A study of Mus musculus with 6 samples.

Results

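The keratin and keratin-associated gene clusters of the mouse were examined in promoter-capture Micro-C libraries, which map the contacts of promoter fragments (baits) captured with a promoter panel. Members were the protein-coding genes whose symbol is Krt followed by a number or starts with Krtap, and the baits within 2 kb of such a gene body. There were 109 genes of 21900 protein-coding genes and 95 baits of the 19083 baits that occur in the files. A bait enters the files only with a listed contact, and 92 of the 109 genes had at least 1 bait there.

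Keratins are the intermediate filament proteins of epithelial cells, and a filament is built from pairs of a type I (acidic) and a type II (basic) chain. In the mouse nearly all type I genes lie on chromosome 11 and the type II genes on chromosome 15, where Krt18, a type I gene, sits beside its partner Krt8. Keratin-associated proteins (Krtap) form the matrix between the keratin filaments of hair. Krt8 and Krt18 form the filaments of simple epithelia and are the keratins that the selection rule names as active in stem cells. The remaining members serve the epidermis, the hair follicle and other differentiated epithelia.

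The cells were E14 mouse embryonic stem cells, a wild type line derived from a male mouse and grown with serum and leukemia inhibitory factor. Each group was collected 48 h after it received esiRNA, meaning a mixture of short interfering RNAs made by digesting a long double-stranded RNA. The 3 groups were Ino80KD, with esiRNA against Ino80, the ATPase of the INO80 remodeller, Brg1KD, with esiRNA against Smarca4, which encodes Brg1, the ATPase of the esBAF remodeller, and Control, with esiRNA against EGFP. All groups, Control included, were transfected, and each group had 2 libraries. Replicate 1 of every group was labelled batch 1, replicate 2 of both depletions batch 3, and replicate 2 of Control batch 2. The labels do not say whether replicates were separate cultures, and p-values measure only the spread between these libraries, which may be technical. These libraries hold no RNA measurement, so neither the depletions nor the activity of any keratin gene could be checked, and the stem cell identity could not be checked against markers.

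Each library's list gave loops, meaning a bait, a second region and the authors' interaction score from 5 up. The 6 lists held 12254 to 15322 loops within a chromosome and 2405 to 3809 between chromosomes, with the most between chromosomes in Brg1KD replicate 1. The sequencing depth per library is unknown.

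The promoters of the 4 genes below are shown because their baits carry the results that follow: Krt8 and Krt18 as the stem cell pair, and Krt84 and Krtap16-1, both hair genes, as the baits of the leading loops on chromosome 15 and chromosome 11. Each runs 5′ to 3′ from 250 bases before to 50 bases after the gene start in RefSeq (build GRCm38.p6), and lies on the gene's bait. Krt8 is chr15:102004293-102004592 on the minus strand, Krt18 is chr15:102027966-102028265 on the plus strand, Krt84 is chr15:101532771-101533070 on the minus strand, and Krtap16-1 is chr11:99986544-99986843 on the minus strand. Capitals mark matches to TATAAA, the letters of a TATA box, read on either strand, or to GGGCGG, the letters of a GC box, of which these 4 windows held none.
Krt8: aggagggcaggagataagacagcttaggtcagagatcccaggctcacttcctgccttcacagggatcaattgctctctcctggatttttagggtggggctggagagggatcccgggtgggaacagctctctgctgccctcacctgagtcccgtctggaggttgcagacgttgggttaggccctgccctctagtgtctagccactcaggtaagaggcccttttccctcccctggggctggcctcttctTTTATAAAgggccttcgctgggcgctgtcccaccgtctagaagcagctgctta
Krt18: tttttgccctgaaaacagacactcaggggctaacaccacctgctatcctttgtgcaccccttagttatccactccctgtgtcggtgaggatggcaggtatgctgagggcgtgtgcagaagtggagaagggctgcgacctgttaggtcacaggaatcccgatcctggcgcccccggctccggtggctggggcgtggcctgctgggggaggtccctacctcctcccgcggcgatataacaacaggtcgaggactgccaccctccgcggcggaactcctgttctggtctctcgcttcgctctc
Krt84: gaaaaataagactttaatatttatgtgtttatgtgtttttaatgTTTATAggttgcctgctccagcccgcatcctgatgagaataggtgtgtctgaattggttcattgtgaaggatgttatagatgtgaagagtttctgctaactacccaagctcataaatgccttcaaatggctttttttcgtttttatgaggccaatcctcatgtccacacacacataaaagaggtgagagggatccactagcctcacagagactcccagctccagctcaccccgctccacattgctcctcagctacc
Krtap16-1: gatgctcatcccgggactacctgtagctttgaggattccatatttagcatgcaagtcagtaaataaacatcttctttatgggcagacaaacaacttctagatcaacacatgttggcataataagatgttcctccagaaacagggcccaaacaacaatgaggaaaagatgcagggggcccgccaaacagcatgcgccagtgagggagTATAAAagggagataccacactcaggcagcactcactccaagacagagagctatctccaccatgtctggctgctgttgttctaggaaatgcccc
In Krt8 the capitals are overlapping matches on both strands at the annotated start, and Krt18 had no match.

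RefSeq windows of 300 bases were found for 87 of the 109 genes, 88 windows in all, 72 of them on a bait. TATAAA stood in 69.8% of the 86 windows of keratin genes other than Krt8 and Krt18, against 12.6% of 21263 windows of all protein-coding genes. The share was 82.4% of the 51 Krtap windows and 51.4% of the 35 other Krt windows. GGGCGG, which holds a CpG, stood in 2.33% of the other keratin windows, against 46.2% of all windows. CpG dinucleotides numbered 6 in Krt8 and 17 in Krt18, with a median of 3 in the other keratin windows and 13 in all windows. The median was 2 in Krtap genes and 5 in other Krt genes. The median share of G and C bases was 44% in the other keratin windows and 56.3% in all windows. Matches were counted anywhere in a window and were not adjusted for this share. A match to such letters is a description of sequence, not a binding site.

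Keratin baits other than Krt8 and Krt18 had more listed loops per bait than the other baits of the files in every library. The loops of all keratin baits, that pair included, were also longer than other loops. A loop was counted for keratin baits if such a bait was at either end, and for all other baits only by its listed bait. In Ino80KD the keratin baits other than Krt8 and Krt18 averaged 2.10 and 1.90 loops per bait, against 0.762 and 0.734 for all other baits. In Brg1KD the values were 1.43 and 1.85, against 0.638 and 0.673. In Control they were 1.96 and 2.19, against 0.797 and 0.747. No library of the 6 had a keratin value as low as the highest value of the other baits. The difference within a library was 1.18 ± 0.222 loops per bait (SD, n = 6), above 0 in 6 of 6 libraries, with p = 0.03125 in an exact two-sided sign-flip permutation test, the smallest p that 6 libraries allow. After Benjamini-Hochberg adjustment over 3 such exact tests it was 0.0469. Among loops with a score of at least 7, which are fewer, the difference was 0.351 loops per bait, with the same adjusted p. Baits without any contact in the files are in neither average, and neighbouring baits of a cluster share regions and are not independent.

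The median span of keratin loops was 517 and 508 kb in Ino80KD, 469 and 487 kb in Brg1KD, and 506 and 506 kb in Control. For loops of all other baits it was 238 and 242 kb in Ino80KD, 218 and 257 kb in Brg1KD, and 246 and 277 kb in Control. The difference was 252 ± 19.6 kb (SD, n = 6), above 0 in 6 of 6 libraries, with an adjusted p of 0.0469 by the exact sign-flip permutation test. Between 85.3% and 90.7% of a library's keratin loops spanned 250 to 1000 kb, against 39.0% to 43.8% of other loops. Under 100 kb the shares were 1.5% to 3.68%, against 19.7% to 21.9%. The far end lay inside a keratin cluster for 85.8% to 90.3% of a library's keratin loops.

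**Figure D1:**
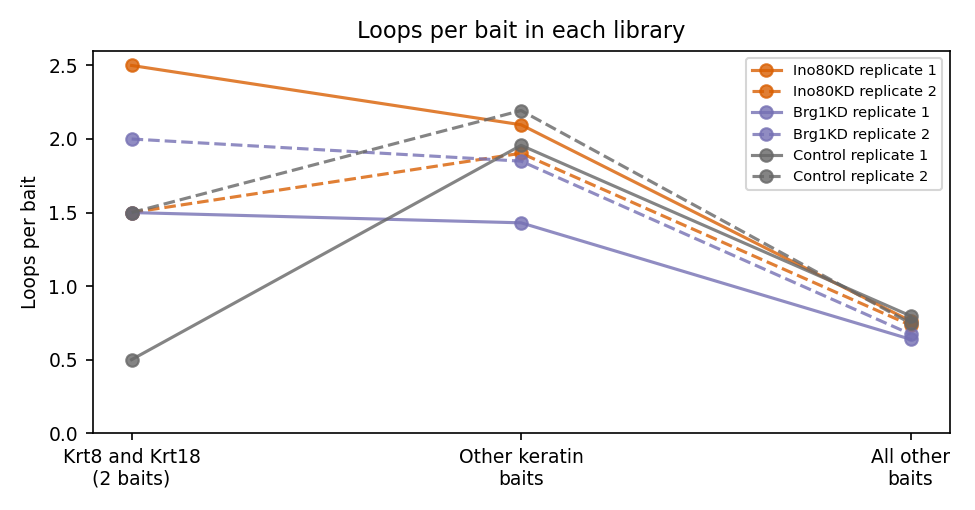
Loops per bait (y axis) in each of the 6 libraries for the baits of Krt8 and Krt18, the other keratin baits and all other baits. Points joined by a line are 1 library (solid, replicate 1, and dashed, replicate 2), and in every library the other keratin baits (1.43 to 2.19) lie above all other baits (0.638 to 0.797).

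Krt8 and Krt18 were not shown to differ from the other keratins in the number of their loops. Their 2 baits together had 5 and 3 loops in Ino80KD, 3 and 4 in Brg1KD, and 1 and 3 in Control. Per bait the difference from the other keratin baits was -0.32 ± 0.683 (SD, n = 6), above 0 in 3 of 6 libraries and between -1.46 and 0.403, with an adjusted p of 0.375 by the exact sign-flip permutation test. Without Control replicate 1, where the pair had 1 loop, the difference was -0.09. Krt8 alone had 2 and 2 loops in Ino80KD, 3 and 1 in Brg1KD, and 1 and 1 in Control. Krt18 had 3 and 1 in Ino80KD, 0 and 3 in Brg1KD, and 0 and 2 in Control. With so few loops, an order between groups was not detectable.

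All 14 distinct loops of Krt8 and Krt18, listed 19 times over the 6 libraries, ran the same way, across the type II cluster to lower coordinates, over 575.5 to 958 kb. Where their far ends met a gene, it was Krt7 and Krt87 or Krt80 inside the cluster, and beyond it Grasp, Atg101, Nr4a1 (a nuclear receptor gene), Acvr1b (an activin receptor gene) or Fignl2. The loop found most often joined Krt8 to chr15:101320001-101340000, which overlaps no protein-coding gene and lies just outside the Krt80 end of the cluster. It was listed in Brg1KD replicates 1 and 2 and in Control replicate 1. No other loop of the pair was listed in more than 2 libraries.

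Most keratin loops came from the type I and type II clusters. The chromosome 11 cluster (chr11:99232761-100269951, 1037 kb) holds 27 Krt and 23 Krtap genes, whose 53 baits had 697 listings of 430 distinct loops in the 6 libraries. The chromosome 15 cluster (chr15:101348315-102032026, 684 kb) holds 26 Krt genes, with 26 baits, 340 listings and 180 distinct loops. Both averaged close to the same number per bait and library, 2.19 on chromosome 11 and 2.18 on chromosome 15. The Krtap cluster on chromosome 16 (chr16:88610709-89571183) averaged 0.455 loops per bait, with baits for 11 of its 24 genes, and that on chromosome 7 (chr7:142174532-142304503) averaged 0.458, with baits for 4 of 5 genes. Both were under the mean of all other baits, 0.725 loops per bait and library. Krtap28-13, alone on chromosome 1, had 4 listings, and the 3 Krtap genes on chromosome 10 had no bait in the files.

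In the type I cluster the Krt genes stand in blocks on both sides of a block of Krtap genes. Most loops from the baits of an outer block ended in the opposite outer block. Of 268 listings from the 16 baits of the block from Krt33a to Krt42, 229 (85.4%) ended in the block from Krt222 to Krt40. From that block's 13 baits, 77 of 130 listings (59.2%) ended in the block from Krt33a to Krt42. The 24 baits of the Krtap block sent 155 of 299 listings (51.8%) to the block from Krt222 to Krt40, 66 to the block from Krt33a to Krt42, and 74 stayed within it. Loops that stayed within an outer block were few, with 15 listings inside the block from Krt33a to Krt42 and 6 inside the block from Krt222 to Krt40. The first of these blocks is 259 kb long and the second 310 kb, while the median span in the cluster was 546 kb. The shares between and within blocks are therefore not independent of span.

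In the type II cluster, cut here at its midpoint, most loops joined the part from Krt80 to Krt6b with the part from Krt6a to Krt18. The median span was 444 kb in this cluster of 684 kb, so the shares and directions below are not independent of span. Of 166 listings from the 12 baits from Krt80 to Krt6b, 139 (83.7%) ended in the part of the cluster from Krt6a to Krt18. From the 14 baits of that part, 104 of 174 listings (59.8%) ended in the part from Krt80 to Krt6b, and 48 (27.6%) ended outside the cluster on the Krt80 side. The direction was one-sided for many baits: 7 of these 14 baits had all their loops to lower coordinates, 0 had all to higher ones, and 7 had both. Of the 12 baits from Krt80 to Krt6b, 5 had all their loops to higher coordinates and 1 had all to lower ones.

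**Figure D2:**
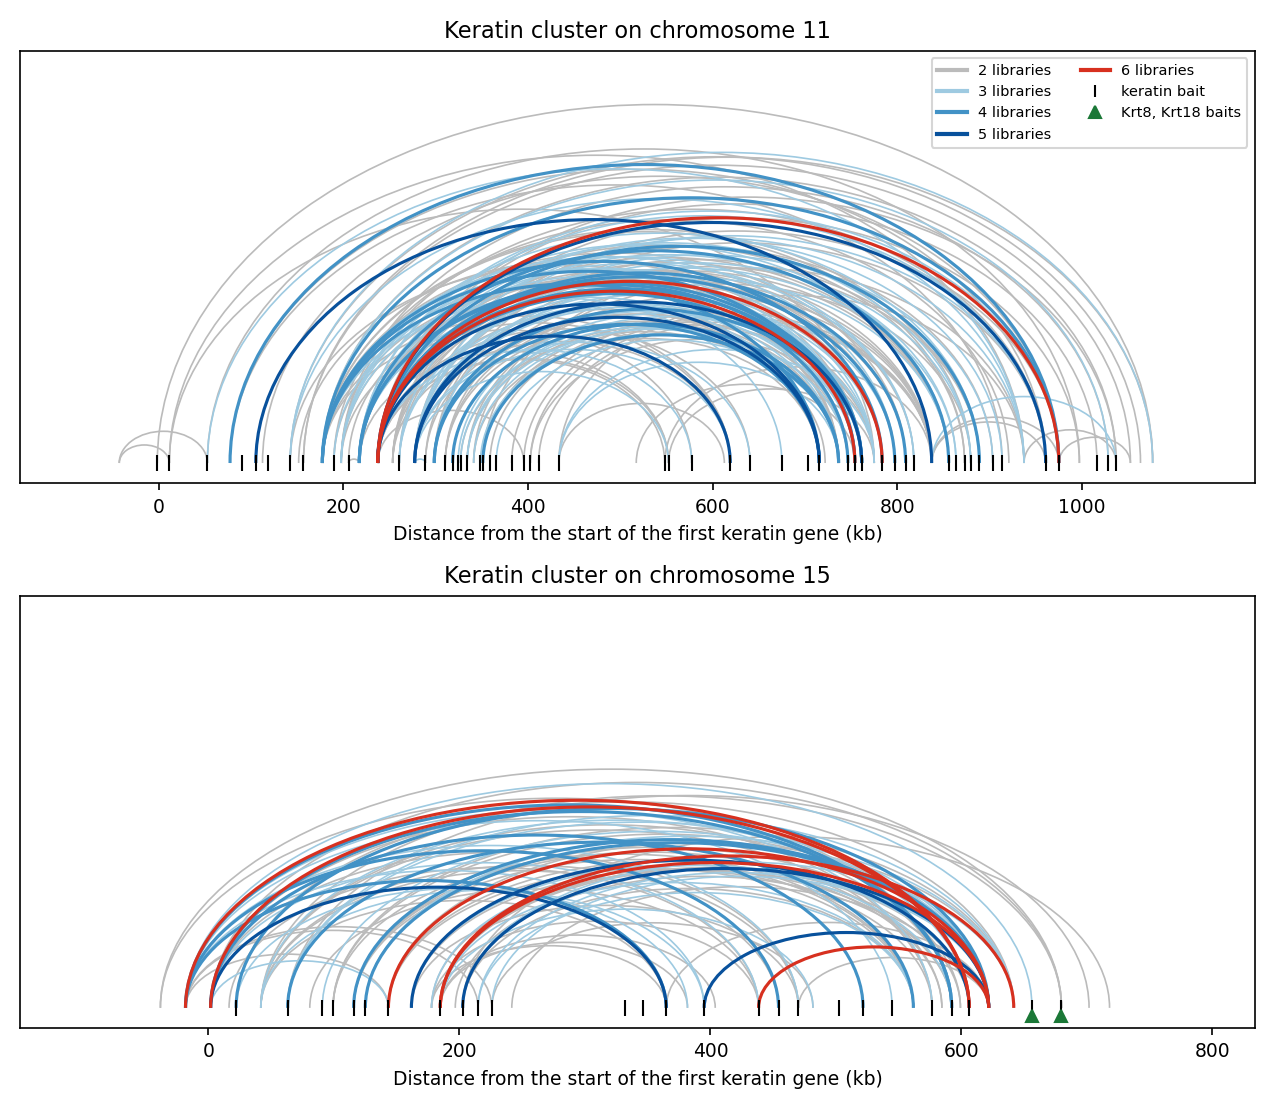
Arcs join the bait and far end of the 239 distinct loops listed in at least 2 libraries in the chromosome 11 cluster (upper panel) and the chromosome 15 cluster (lower panel), on an axis of kb from the start of the first keratin gene; ticks are baits, colours the number of libraries, and arc height follows span. On chromosome 11 many arcs meet well inside the cluster, at about 237, 277 and 837 kb, and on chromosome 15 near both ends, and the 9 loops listed in all 6 libraries (red) number 3 on chromosome 11 and 6 on chromosome 15.

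Far ends were spread unevenly over regions of 20 kb. On chromosome 11, 27 of the 56 regions with any loop were met by at least 5 baits, and on chromosome 15, 14 of 32. On chromosome 11, chr11:99460001-99480000, between Krt20 and Krt23, with 2.03 kb inside the Krt23 gene, was met by 28 of the 53 baits. Its listings numbered 16 and 9 in Ino80KD, 13 and 16 in Brg1KD, and 12 and 18 in Control, with overlapping groups. They made up 84 listings, or 12.1% of the cluster's total. The region chr11:99500001-99520000 at Krt39 was met by 26 baits, with 10 and 9 listings in Ino80KD, 6 and 9 in Brg1KD, and 11 and 16 in Control. The gene-free chr11:100060001-100080000 was also met by 26 baits, with 7 and 8 listings in Ino80KD, 7 and 9 in Brg1KD, and 5 and 7 in Control. Adjacent regions over chr11:99400001-99540000 were each met by 15 to 28 baits. The median region of the cluster with any loop was met by 4 baits.

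On chromosome 15, chr15:101960001-101980000 was met by 18 of the 26 baits. This region lies wholly inside the annotated Krt78 gene body, but upstream of the Krt78 bait and promoter window (chr15:101954238-101954537, minus strand). Its listings numbered 9 and 9 in Ino80KD, 11 and 15 in Brg1KD, and 10 and 7 in Control. Both Brg1KD libraries were above both Control libraries in this region, which was chosen for its high total. In the next region, chr15:101980001-102000000, met by 12 baits, both Brg1KD libraries were below both Control libraries. Its listings numbered 6 and 1 in Ino80KD, 4 and 3 in Brg1KD, and 6 and 6 in Control. Neither comparison was tested. The opposite end had a pair of such regions, chr15:101340001-101360000 at Krt80, met by 17 baits, and the gene-free chr15:101320001-101340000, met by 15. The first had 6 and 8 listings in Ino80KD, 6 and 4 in Brg1KD, and 6 and 9 in Control. The second had 5 and 6 in Ino80KD, 7 and 6 in Brg1KD, and 8 and 10 in Control.

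**Figure D3:**
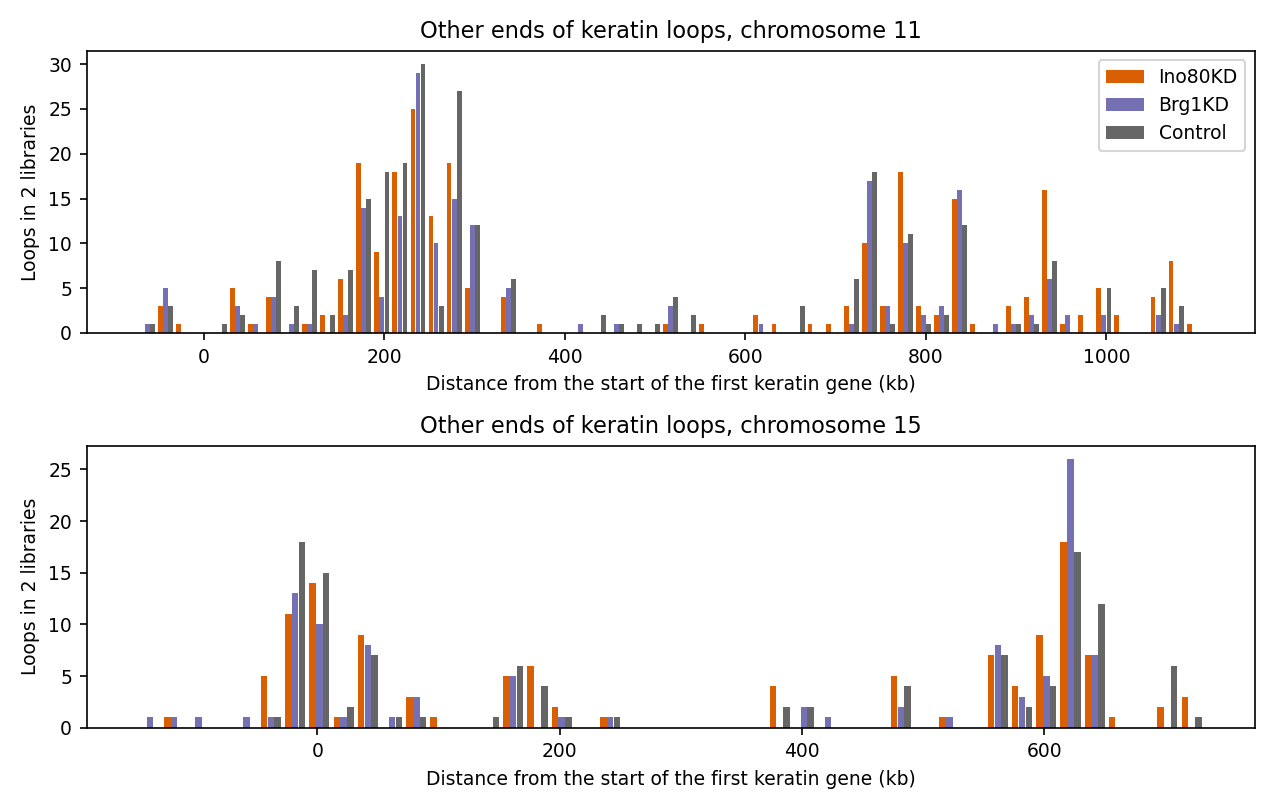
Number of keratin loops (y axis, sum of the 2 libraries of a group) whose far end fell in each region of 20 kb, by distance from the start of the first keratin gene in kb, for Ino80KD, Brg1KD and Control. Far ends gather on both sides of the middle of each cluster in all 3 groups, with 84 listings in the most shared region on chromosome 11 and 61 on chromosome 15.

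Of 646 distinct keratin loops, 400 (61.9%) were listed in a single library and 9 (1.39%) in all 6, against 68.0% and 3.15% of the 49576 distinct loops of all baits. The loop listed in all 6 libraries with the highest score joined Krt84 to the Krt78 region above, over 437 kb. Its scores were 10.5 and 10.8 in Ino80KD, 12.8 and 17.4 in Brg1KD, and 8.27 and 6.38 in Control. From the same bait, the next region (chr15:101980001-102000000, Krt78 to Krt8) had scores of 5.09 and 5.66 in Ino80KD, 6.91 and 7.06 in Brg1KD, and 12.4 and 11.8 in Control. Both regions of this bait were thus listed in every library. Scores are the authors' own and come from lists called separately, so they were not tested between libraries.

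The other loops of this kind on chromosome 15 joined Krt72 (an inner root sheath keratin) and Krt83 (a hair keratin) to the same Krt78 region, and Krt78 to both regions at the Krt80 end. On chromosome 11 they joined Krtap16-1, Krt14 and Krt33a (a hair keratin) to the region beside Krt23. Krtap16-1 spanned 517 kb, with scores of 12.5 and 7.99 in Ino80KD, 7.12 and 9.0 in Brg1KD, and 8.01 and 10.6 in Control. Next in rank, in 5 of 6 libraries, were the loops of Krtap9-5 and Krt9 (a keratin of palm and sole skin) to the Krt23 region and of the bait of Krt82 and Krt90 to the Krt78 region.

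Single baits differed widely, from 1 to 37 loops over the 6 libraries with a median of 10. Krt14, the type I keratin of basal epidermal cells, had the most, with 5 and 6 in Ino80KD, 6 and 6 in Brg1KD, and 7 and 7 in Control. Krt5, its type II partner on chromosome 15, had 3 and 3 in Ino80KD, 4 and 4 in Brg1KD, and 2 and 1 in Control. These counts of single baits are small, and their order between groups was not tested. Krt10, of the upper epidermal layers, had 2 and 6 in Ino80KD, 1 and 0 in Brg1KD, and 3 and 1 in Control, and its partner Krt1 had 3 loops in all.

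Among keratins of simple epithelia, Krt7 had 16 loops over the 6 libraries, Krt19 had 14 and Krt20 had 10. Krt20 had 0 and 0 in Ino80KD, 3 and 1 in Brg1KD, and 3 and 3 in Control. The most looped baits after Krt14 were Krt84 with 32, Krt9, Krtap17-1 and Krt78 with 30 each, Krtap16-1 with 28, Krtap9-5 with 26 and Krt79 with 23. Krtap17-1 varied between replicates, with 4 and 3 in Ino80KD, 1 and 8 in Brg1KD, and 8 and 6 in Control. On chromosome 16 the leading baits were Krtap20-2 with 6, Krtap7-1 with 5 and Krtap21-1 with 4, and on chromosome 7 Krtap5-1 and Krtap5-4 with 4 each.

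The number of keratin loops did not separate the groups. There were 200 and 180 in Ino80KD, 136 and 176 in Brg1KD, and 183 and 207 in Control. Per 1000 loops within a chromosome these were 13.6 and 12.8 in Ino80KD, 11.1 and 13.6 in Brg1KD, and 11.9 and 14.4 in Control. The ranges of all 3 groups overlapped, and the lowest value was that of Brg1KD replicate 1, with a 95% Wilson interval of 9.39 to 13.1 per 1000. The highest, Control replicate 2, had an interval of 12.6 to 16.5 per 1000, and such intervals cover counting error only. For Ino80KD against Control the means were 13.2 ± 0.618 and 13.2 ± 1.72 (SD, n = 2 each), a ratio of 1.00 with p = 1 in an exact two-sided permutation test. For Brg1KD against Control they were 12.3 ± 1.75 and 13.2 ± 1.72 (SD, n = 2 each), a ratio of 0.937 with an exact permutation p of 0.667. For Ino80KD against Brg1KD the ratio was 1.07 with an exact permutation p of 0.667. With 2 against 2 libraries p cannot go below 0.333, and all 9 such exact tests, clusters included, had an adjusted p of 1.

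Within batch 1 the ratio was 1.14 for Ino80KD against Control and 0.929 for Brg1KD against Control, from 1 library each. The direction turned with single libraries: without Brg1KD replicate 1 the Brg1KD ratio was 1.03, without Control replicate 2 it was 1.03, and it was 1.18 among loops with a score of at least 7. In the chromosome 11 cluster the values per 1000 were 8.86 and 8.29 in Ino80KD, 6.94 and 8.64 in Brg1KD, and 7.64 and 9.45 in Control. In the chromosome 15 cluster they were 4.57 and 3.90 in Ino80KD, 3.43 and 4.71 in Brg1KD, and 3.39 and 4.38 in Control. Groups overlapped in both clusters.

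**Figure D4:**
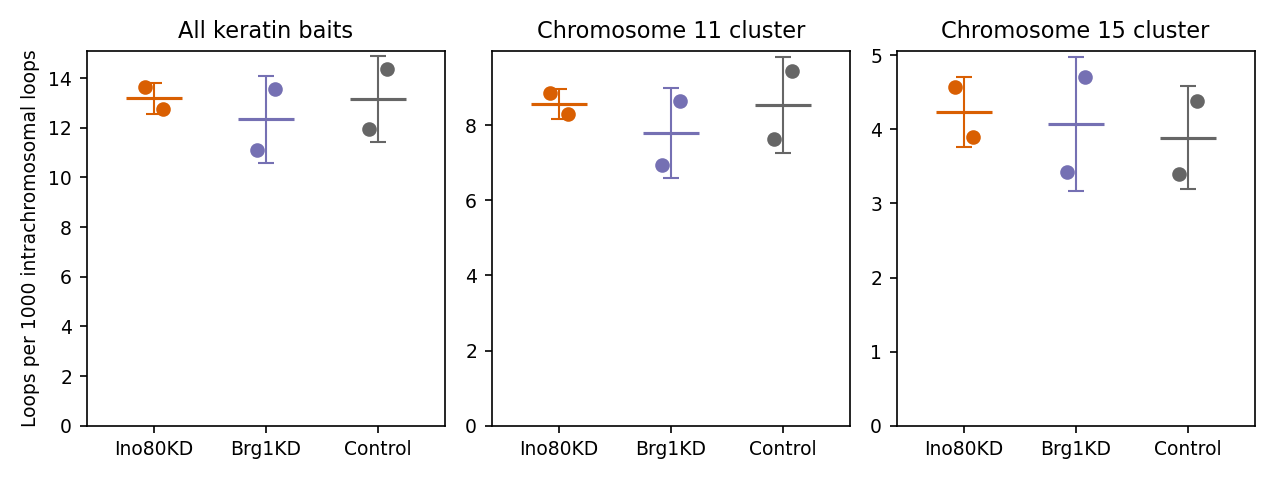
Keratin loops per 1000 loops within a chromosome (y axis, from 0) in Ino80KD, Brg1KD and Control, for all keratin baits and for the clusters on chromosomes 11 and 15; points are libraries, lines the means and bars the SD of 2 libraries. The groups overlap in each panel, with all keratin baits between 11.1 and 14.4.

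Loops from keratin baits to other chromosomes numbered 13 and 14 in Ino80KD, 26 and 16 in Brg1KD, and 16 and 22 in Control. Per 1000 such loops of all baits except the 1 left out, these were 4.62 and 5.82 in Ino80KD, 6.83 and 6.15 in Brg1KD, and 5.88 and 7.48 in Control. Brg1KD lay inside the range of Control and Ino80KD below it, which was not tested. Loops listed in both libraries of a group and in neither of another were counted as well. For Ino80KD against Control there were 11 in Ino80KD and 20 in Control, and for Brg1KD against Control 11 in Brg1KD and 21 in Control. Between the depletions there were 20 in Ino80KD and 17 in Brg1KD. Over all baits the counts were 983 in Ino80KD and 1086 in Control, 733 in Brg1KD and 1341 in Control, and 1401 in Ino80KD and 807 in Brg1KD.

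The authors' deposited tables gave a log2 fold change for regions contacted by a bait, tested against Control. No header states its direction. It was above 0 for 86.3% of loops listed in both Ino80KD libraries only and for 15.4% of those in both Control libraries only, and for Brg1KD for 83.4% and 16.7%, and on that basis a positive value was read as higher in the depleted cells. Both tables use the same Control libraries, and regions contacted by 1 bait can overlap.

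In the authors' deposited table for Ino80KD no keratin region of 502 had an adjusted p under 0.05, and none did among all 34774 (percent called 0). With p under 0.05 before adjustment, 0 keratin regions were higher, with a background of 0.912% of all regions, and 1 was lower, with a background of 0.382% (either direction, 1.29%). That region, chr11:99691861-99784079 over Krtap4-8, was contacted by Krtap3-2 and had -1.04 ± 0.45 (the table's error) with p = 0.0215 and an adjusted p of 1.00 in the authors' deposited table. In the authors' deposited table for Brg1KD 0 of 462 keratin regions and 0 of all 33243 had an adjusted p under 0.05. With p under 0.05 before adjustment, 2 keratin regions were higher, with a background of 0.373%, and 0 were lower, with a background of 0.827% (either direction, 1.2%). The keratin shares, 0.199% lower after Ino80KD and 0.433% higher after Brg1KD, were near or under the backgrounds.

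The 2 keratin regions higher after Brg1KD belonged to Krt84 and Krtap5-5. For Krt84 the authors' deposited table gave 0.60 ± 0.27 (the table's error, unadjusted p = 0.0249, adjusted p = 1.00) at chr15:101900001-102003602, from Krt4 to Krt8. This region holds both Krt84 loop ends whose scores were given above. For Krtap5-5, whose bait also meets Gm40460, the authors' deposited table gave 0.87 ± 0.44 (unadjusted p = 0.0459, adjusted p = 1.00) at chr7:141740001-141837949 over the mucin genes Muc2 and Muc5ac.

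Small fold changes leaned one way in some clusters. In the authors' deposited table for Brg1KD, 57.8% of keratin regions were above 0, with a background of 48.7% of all regions. On chromosome 15 the count in the authors' deposited table for Brg1KD was 100 of 132 regions (75.8%), and the weighted mean per bait was above 0 for 21 of 26 baits, with a median of 0.15 on the log2 scale. On chromosome 11 it was 160 of 305 regions in the authors' deposited table, with a median per bait of 0.03. In the authors' deposited table for Ino80KD, 43.8% of keratin regions were above 0, with a background of 50.4%, and 56.2% below 0, with a background of 49.6%. For Ino80KD the authors' deposited table had 194 of 328 regions below 0 on chromosome 11 and 81 of 151 above 0 on chromosome 15, with medians per bait of -0.09 and 0.04. The chromosome 16 medians in the authors' deposited tables were -0.27 for Ino80KD and -0.18 for Brg1KD. The table's error of a typical single chromosome 15 region, 0.37 in both of the authors' deposited tables, was larger than these medians, which are over weighted means per bait. The error calculated for such a weighted mean ran from 0.09 (Krt84) to 0.43 (Krt6b) on chromosome 15 for Brg1KD. It takes a bait's regions as independent, but the regions come from 1 locus with overlapping contacts.

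Krt8 had a weighted mean of 0.04 in the authors' deposited table for Ino80KD and 0.37 in that for Brg1KD, and Krt18 had -0.32 for Ino80KD and -0.01 for Brg1KD. Over the 95 baits the median in the authors' deposited tables was -0.08 for Ino80KD (54 of 89 baits with a value below 0) and 0.05 for Brg1KD (56 of 93 above 0), against -0.01 for all baits in both tables. The highest keratin baits in the authors' deposited table for Ino80KD were Krt28 (0.51), Krt81 (0.44), Krtap9-3 (0.42), the Krt222 bait that also meets Smarce1, a BAF subunit gene (0.34) and Krt1 (0.29), and the lowest were Krtap26-1 (-0.59), Krtap7-1 (-0.58), Krt31 (-0.44), Krtap3-2 (-0.42) and Krt87 (-0.38). In the authors' deposited table for Brg1KD the highest were Krt25 (0.48), Krtap5-5 (0.47), Krt81 (0.43), Krt86 (0.38) and Krt8 (0.37), and the lowest were Krtap16-3 (-0.57), Krtap7-1 (-0.42), Krt31 (-0.36), Krt10 (-0.33) and Krtap28-13 (-0.29).

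Krt81, a hair keratin, was above 0 and Krt31, also a hair keratin, below 0 in both of the authors' deposited tables, which share Control libraries. Krt84 had all 11 of its regions above 0 in the authors' deposited table for Brg1KD, with a weighted mean of 0.35, and 11 of 12 below 0 in that for Ino80KD, with a weighted mean of -0.09. The paired values for Krt5 were 0.08 in the authors' deposited table for Ino80KD and 0.26 in that for Brg1KD, and for Krt14 they were -0.10 in that for Ino80KD and -0.02 in that for Brg1KD.

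**Figure D5:**
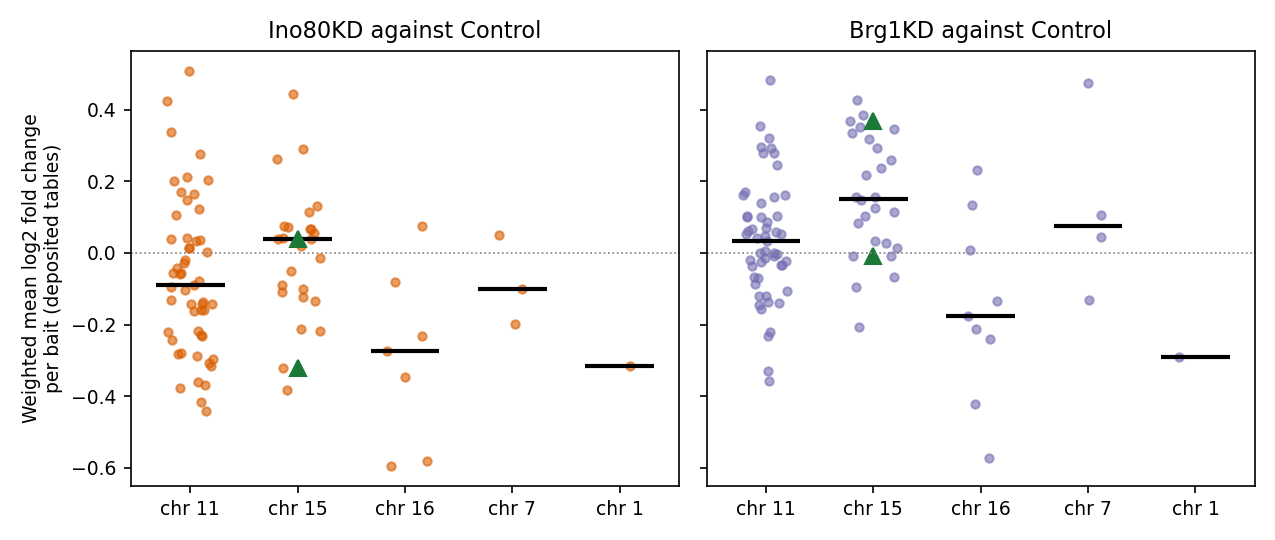
Mean log2 fold change per keratin bait, weighted by the inverse squared error of its regions, from the authors' deposited tables for Ino80KD (left) and Brg1KD (right) against Control, by chromosome; bars are medians over baits and triangles are Krt8 and Krt18. On chromosome 15 the median is 0.15 for Brg1KD and 0.04 for Ino80KD, and values of both tables share Control libraries.

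Among genes that work beside the keratins in epidermis or form other intermediate filaments, loops per bait differed by location. Of 52 such genes, 43 had a bait in the files. Their 59 baits had 75 and 71 loops in Ino80KD, 71 and 77 in Brg1KD, and 79 and 87 in Control, or 1.20 to 1.47 per bait, where the keratin baits other than Krt8 and Krt18 had 1.43 to 2.19. The 20 listed genes on chromosome 3, mostly the epidermal genes from Flg to S100a9 with Nes and Lmna, had 28 baits and 1.46 to 2.07 loops per bait over the libraries, a range that overlaps the keratins'. The 31 baits on other chromosomes had 0.710 to 0.968. This split by chromosome was made after the values were seen, and the differences were not tested. By total listings over the 6 libraries, Flg, which encodes filaggrin of the cornified layer, led with 68 from 5 baits. Next were Pkp3, a desmosomal plakophilin, with 49 from 2 baits, and Crnn (cornulin) with 36 from 2 baits. Rptn (repetin) and Tchhl1 had 20 each, from 1 bait each. Pkp3, on chromosome 7, gave 49 of the 161 listings of the baits on other chromosomes. With p under 0.05 before adjustment, the authors' deposited table for Ino80KD had 2 higher and 1 lower of their 164 regions, with backgrounds of 0.912% and 0.382% of all regions. The authors' deposited table for Brg1KD had 1 higher and 1 lower of 173, with backgrounds of 0.373% and 0.827%. The 5 pluripotency genes had 17 and 10 loops in Ino80KD, 6 and 4 in Brg1KD, and 8 and 5 in Control, and 4 fibroblast genes had 4 and 3 in Ino80KD, 3 and 3 in Brg1KD, and 4 and 2 in Control.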

How the data were processed

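Promoter-capture Micro-C was measured in 6 libraries, 2 per group. Per the labels' protocols, cells were crosslinked, digested with micrococcal nuclease, proximity-ligated and captured with a promoter panel. The submitters' processing notes name mm10 and bedtools. The sources used here name no loop caller. The authors deposited a loop list per library with an interaction score and the positions of both ends, and a table per depletion which, per the file headers, holds a mean normalized signal, a log2 fold change, its error, a p-value and an adjusted p-value. The depth per library is unknown, since the deposited files give no counts.

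Loops were counted from the lists, leaving out 1 bait that the group lists lack in part. Counts were scaled per 1000 intrachromosomal loops or per bait and compared over libraries with exact permutation tests, adjusted by Benjamini-Hochberg. Clusters are runs of members with gaps under 1 Mb. Genes and promoters came from RefSeq (GRCm38.p6, the chromosomes of mm10). In the deposited tables, each bait's regions were combined as a mean weighted by inverse squared error. Ino80KD and Brg1KD replicates of 1 number share a labelled batch and are paired; against Control only replicate 1 shares a batch, so the numbers do not pair samples there. Named were Krt8, Krt18, 7 textbook epithelial keratins, the 3 most looped baits of each cluster, the 12 loops listed in most libraries, regions with an unadjusted p under 0.05 and the 5 highest and lowest baits of each table. Regions where far ends gathered were named after their values were seen. Members and lists were chosen with earlier results of these data known. The scripts passed 6 of 6 checks on simulated data. Alternatives were the score minimum, the window around genes, shared baits, the denominator, single libraries, the replicate block and the weighting. Python 3.11.15, numpy 2.4.6, pandas 2.3.3 and matplotlib 3.10.9 were used.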

Additional observations from a re-analysis of the deposited data

How the results depend on the processing

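The ratios of keratin loops per 1000 between groups had no stable direction. With a score of at least 7 they were 0.954 for Ino80KD against Control, 1.18 for Brg1KD against Control and 0.806 for Ino80KD against Brg1KD, each on the other side of 1 from the reported ratio. For Ino80KD against Control the ratio also fell below 1 with no window around genes (0.980), without baits shared with another gene (0.994), with interchromosomal loops in the denominator (0.998) and without Krt8 and Krt18 (0.992). Leaving out each library in turn gave 0.917 to 1.10 for Ino80KD against Control, 0.843 to 1.03 for Brg1KD against Control and 0.972 to 1.19 for Ino80KD against Brg1KD. In the chromosome 11 cluster these ranges were 0.908 to 1.12 for Ino80KD against Control, 0.812 to 1.02 for Brg1KD against Control and 0.992 to 1.24 for Ino80KD against Brg1KD, and in the chromosome 15 cluster 0.967 to 1.25, 0.882 to 1.21 and 0.899 to 1.23 for the same pairs. The cluster ranges were chosen after seeing the data. With the replicate number as a block the ratios were 1.01 for Ino80KD against Control, 0.937 for Brg1KD against Control and, where number and batch coincide, 1.07 for Ino80KD against Brg1KD (exact sign-flip permutation p = 1, 0.5 and 1; 2 pairs cannot go below 0.5), and the block changed no call. The excess of loops at keratin baits other than Krt8 and Krt18 over all other baits was 1.13 to 1.26 per bait without each library in turn. Its exact permutation p was then 0.0625, the smallest that 5 libraries allow. With a score of at least 7, which leaves fewer loops, the excess was 0.351. The mean share of far ends inside a keratin cluster was 90.8% with that score, against 87.5% as reported over all loops. The most shared region was met by 20 of the chromosome 11 baits and 14 of the chromosome 15 baits with that score, and by 28 and 18 without Brg1KD replicate 1, alternatives also added after seeing the data. The medians of the deposited log2 fold changes per bait ranged over their alternatives from -0.10 to -0.04 for Ino80KD and from 0.03 to 0.05 for Brg1KD. Loop lists that start at a score of 5 show a contact only above that level, so a missing loop is not an absent contact. With 2 libraries per group, no difference between groups could pass 0.05 in the exact permutation tests used here.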
